A study of Mus musculus with 18 samples.

Results

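The 10 genes described here encode enzymes that turn arachidonic acid into leukotrienes, enzymes that convert prostanoids other than prostaglandin E2, and an enzyme that breaks down platelet-activating factor, 10 of the 48023 genes in the count table. They were selected by symbol from the annotated table as a set in which FGF6 treatment had been seen to move Akr1c18 one way and Ltc4s, Ggt5, and Cbr2 the other. Their differences between FGF6 and vehicle are therefore given as a description, without p-values. Numbers of these genes past a threshold and intervals on their ratios are printed on the same terms and are not read as tests. Leukotrienes are made when ALOX5, presented with arachidonic acid by its partner FLAP (the product of Alox5ap), forms leukotriene A4. LTA4H hydrolyses leukotriene A4 to leukotriene B4, whereas LTC4S joins it to glutathione to give leukotriene C4, and GGT5 trims leukotriene C4 to leukotriene D4. On the prostanoid side, cyclooxygenases make prostaglandin H2, which TBXAS1 converts to thromboxane A2. Aldo-keto and carbonyl reductases such as AKR1C18, CBR2, and CBR3 act on carbonyl groups of prostaglandins and of steroids or other compounds, and PLA2G7 is a secreted phospholipase that inactivates platelet-activating factor.

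The cells were mouse brown preadipocytes, undifferentiated precursors of brown fat, of 1 line from the stromal-vascular fraction of brown fat immortalized with SV40 T antigen, so the groups hold libraries of 1 immortalized line and not of separate animals. They received vehicle or FGF6, a paracrine fibroblast growth factor, and RNA was sequenced after 4, 8, and 24 h from 3 libraries in each of the 6 groups, 18 in all. The groups are called Veh and FGF6 at each time. The labels do not say that the libraries of a group came from separate cultures, and p-values then measure only the spread between these libraries, which may be technical.

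Levels are given as CPM, counts scaled to 1000000 of the library total after correction for composition. The total count per library lay between 24327816 and 33471980. A count of 3, used as the floor of detection, corresponded to 0.0905 to 0.126 CPM depending on the library, and covers counting error only. Of the preadipocyte markers, 10 of 11 were expressed well enough to be tested, and Dlk1 had no count in any library. Replicate 3 of Veh at 24 h stood apart from its group. Its counts differed from those of the other 2 by a chi-square of 34.5 and 37.6 per degree of freedom, against 2.34 to 7.05 between other libraries of the same group, and among the genes that set it apart were CT010467.1 at 10285 per 1000000 counts (77 to 169 in the other libraries) and Lars2 at 2377 (143 to 206), both named after their values were seen. The 24 h differences of the enzymes are given with and without this library, and of the other listed pathway, relative, and marker genes those whose call it changed are named.

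In GRCm38, Alox5 (ENSMUSG00000025701) lies on chromosome 6 from 116410077 to 116461178, Alox5ap (ENSMUSG00000060063) on chromosome 5 from 149264767 to 149288153, Ltc4s (ENSMUSG00000020377) on chromosome 11 from 50236461 to 50238616, Ggt5 (ENSMUSG00000006344) on chromosome 10 from 75589340 to 75617200, and Lta4h (ENSMUSG00000015889) on chromosome 10 from 93453411 to 93484875. Akr1c18 (ENSMUSG00000021214) lies on chromosome 13 from 4132615 to 4150654, Cbr2 (ENSMUSG00000025150) on chromosome 11 from 120729489 to 120732114, Cbr3 (ENSMUSG00000022947) on chromosome 16 from 93683215 to 93690990, Tbxas1 (ENSMUSG00000029925) on chromosome 6 from 38875404 to 39084585, and Pla2g7 (ENSMUSG00000023913) on chromosome 17 from 43568098 to 43612201. All 10 are annotated as protein-coding. Exons of 4 of them overlap a gene on the other strand, for 189 of 1420 exonic bases in Alox5ap, 268 of 1014 in Ltc4s, 144 of 9094 in Tbxas1, and 319 of 2905 in Pla2g7. How the counting used strand is not given in the sources used here, so reads there cannot be told apart from those of the partner gene.

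The stretches before the gene starts are shown for Akr1c18, Ltc4s, and Cbr2, whose opposite moves the selection rests on, and for Cbr3. Cbr3 is a reductase gene that was higher with FGF6 at each time, by at most 1.45-fold. They are the RefSeq promoter windows of GRCm38.p6, available for 8 of the 10 genes (Alox5ap and Ggt5 had no entry), without the bases that GENCODE places inside a transcript. All are written 5′ to 3′ on the strand of the gene, and capitals mark matches on either strand to 5 short motifs, the TATA box in the form TATAAA, the GC box in the form GGGCGG, the AP-1 site in the form TGANTCA, the E-box in the form CACGTG, and the ETS site in the form CCGGAAG.
Akr1c18, chr13:4150655-4150896, minus strand: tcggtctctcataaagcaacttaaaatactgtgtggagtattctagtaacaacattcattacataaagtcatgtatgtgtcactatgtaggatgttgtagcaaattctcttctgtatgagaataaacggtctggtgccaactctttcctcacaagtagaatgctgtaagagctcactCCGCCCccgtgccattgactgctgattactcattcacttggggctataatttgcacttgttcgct
Ltc4s, chr11:50238617-50238782, minus strand: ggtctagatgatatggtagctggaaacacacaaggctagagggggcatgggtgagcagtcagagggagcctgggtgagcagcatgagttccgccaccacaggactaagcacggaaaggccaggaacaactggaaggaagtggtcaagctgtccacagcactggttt
Cbr2, chr11:120732115-120732271, minus strand: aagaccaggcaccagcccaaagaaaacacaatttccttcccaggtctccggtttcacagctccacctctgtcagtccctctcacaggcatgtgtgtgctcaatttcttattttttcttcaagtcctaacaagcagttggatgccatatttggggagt
Cbr3, chr16:93682969-93683214, plus strand: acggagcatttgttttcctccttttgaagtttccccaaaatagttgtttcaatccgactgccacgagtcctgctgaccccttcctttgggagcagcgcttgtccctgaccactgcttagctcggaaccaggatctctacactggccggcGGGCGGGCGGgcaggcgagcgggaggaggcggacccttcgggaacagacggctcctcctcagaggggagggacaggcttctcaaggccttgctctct
Over the 250 bases before the RefSeq start, Akr1c18 held 1 GC box, beginning 73 bases before the start, and Cbr3 held 2 overlapping ones, beginning 101 and 97 bases before it. Ltc4s and Cbr2 held none of the 5 motifs in their 250 bases. Of the genes whose stretch is not shown, Alox5 and Pla2g7 held a GC box (35 and 13 bases before the start), and Lta4h held none. Tbxas1 held overlapping TATA box matches (13 and 11) and an AP-1 site (61). The windows of Tbxas1 and Pla2g7 lie wholly inside the gene as GENCODE places it, so their matches are not before its outermost start. Among 32851 promoter windows of the same length, 32.7% held a GC box, 12.4% a TATA box, 6.75% an AP-1 site, 6.02% an E-box, and 6.91% an ETS site. The base composition also differed, with a GC content of 41.6% for Akr1c18, 57.6% for Ltc4s, 55.6% for Cbr2, and 59.6% for Cbr3. A match or its absence says only whether these letters are in the window.

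The first enzyme of the leukotriene branch was not detectable at this depth. Alox5 held 5 counts over all 18 libraries and at most 2 in any of them, below the floor everywhere, and it was not tested. Alox5ap, whose product presents arachidonic acid to ALOX5, was low but present. It lay at 0.454, 0.649, and 0.434 CPM in the Veh libraries at 4 h, at 0.726, 0.699, and 0.89 at 8 h, and at 1.37, 1.54, and 1.22 at 24 h. With FGF6 it lay at 0.407, 0.414, and 0.406 CPM at 4 h, at 0.163, 0.303, and 0.534 at 8 h, and at 0.219, 0.0357, and 0.33 at 24 h. The FGF6 libraries were below all Veh libraries at each time, narrowly at 4 h and widely at 24 h. On the log2 scale the difference was -0.33 (SE 0.39) at 4 h (-0.12 without replicate 2 of Veh), -1.25 (SE 0.39) at 8 h, and -2.81 (SE 0.4) at 24 h. From summed counts of 16 against 119 at 24 h, Veh exceeded FGF6 by 7.19-fold (95% interval 4.25 to 13, from counting error only). In these bulk libraries, fewer cells that express a gene and less RNA of it per cell cannot be told apart.

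Ltc4s, the enzyme that commits leukotriene A4 to the cysteinyl leukotrienes, was also low in vehicle and lower with FGF6. In vehicle it was at 1.43, 0.742, and 0.701 CPM at 4 h, 0.884, 0.985, and 1.1 at 8 h, and 1.19, 1.42, and 1.18 at 24 h. With FGF6 it was at 0.444, 0.446, and 0.447 CPM at 4 h, 0.195, 0.202, and 0.164 at 8 h, and 0.146, 0.0357, and 0 at 24 h. The groups did not overlap at any time, the FGF6 level stepped down from time to time, and 1 FGF6 library at 24 h had no count. Relative to vehicle, the log2 fold change was -1.09 (SE 0.34) at 4 h, -2.36 (SE 0.4) at 8 h, and -4.3 (SE 0.49) at 24 h. At 24 h the 3 FGF6 libraries held 5 counts in all and the Veh libraries 109, a ratio of 21.1 (95% interval 8.76 to 66.2). The size rests in part on single libraries, since the value at 4 h was -0.69 without replicate 1 of Veh, and that at 24 h was -5.79 without replicate 1 and -3.71 without replicate 3 of FGF6.

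Ggt5, the gamma-glutamyltransferase that makes leukotriene D4, was the best expressed of the low leukotriene genes in vehicle and lay below the floor with FGF6 at 24 h. In vehicle it was at 5.68, 6.65, and 7.41 CPM at 4 h, 6.47, 6.99, and 7.05 at 8 h, and 9.11, 12.2, and 11.6 at 24 h. With FGF6 it was at 3.66, 5.93, and 6.18 CPM at 4 h, 1.2, 1.14, and 0.863 at 8 h, and 0, 0.0357, and 0.0734 at 24 h. The groups overlapped at 4 h and were apart at 8 and 24 h. For Ggt5 the log2 fold change was -0.32 (SE 0.16) at 4 h, -2.65 (SE 0.2) at 8 h, and -8.08 (SE 0.35) at 24 h. At 24 h the FGF6 libraries held 0, 1, and 2 counts and the Veh libraries 260, 404, and 275, which put the ratio at 303 (95% interval 103 to 1470). The fitted value at 24 h ranged from -8.9 to -7.5 when single FGF6 libraries were left out (replicate 3 and replicate 1). Among the 9 genes fitted, this was the largest difference at 24 h.

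Lta4h, whose product makes leukotriene B4 and also acts as an aminopeptidase, was expressed at a steady level. It ranged from 133 to 158 CPM over the 18 libraries. The group means were 141 ± 3.98 (Veh, SD, n = 3) and 136 ± 2.75 (FGF6) at 4 h, 138 ± 1.52 and 142 ± 2.78 at 8 h, and 137 ± 0.882 and 155 ± 2.7 at 24 h. Its log2 fold change was -0.05 (SE 0.031), 0.05 (SE 0.03), and 0.17 (SE 0.031) at the 3 times. At 8 h its sign depended on the scaling, since it was -0.02 with library sizes alone, which moved the median of all genes from -0.05 to -0.11. The groups overlapped at 4 h, the FGF6 libraries were above the Veh libraries by a narrow margin at 8 h (140 CPM at the lowest against 139 at the highest), and they were further apart at 24 h (152 against 138).

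**Figure D1:**
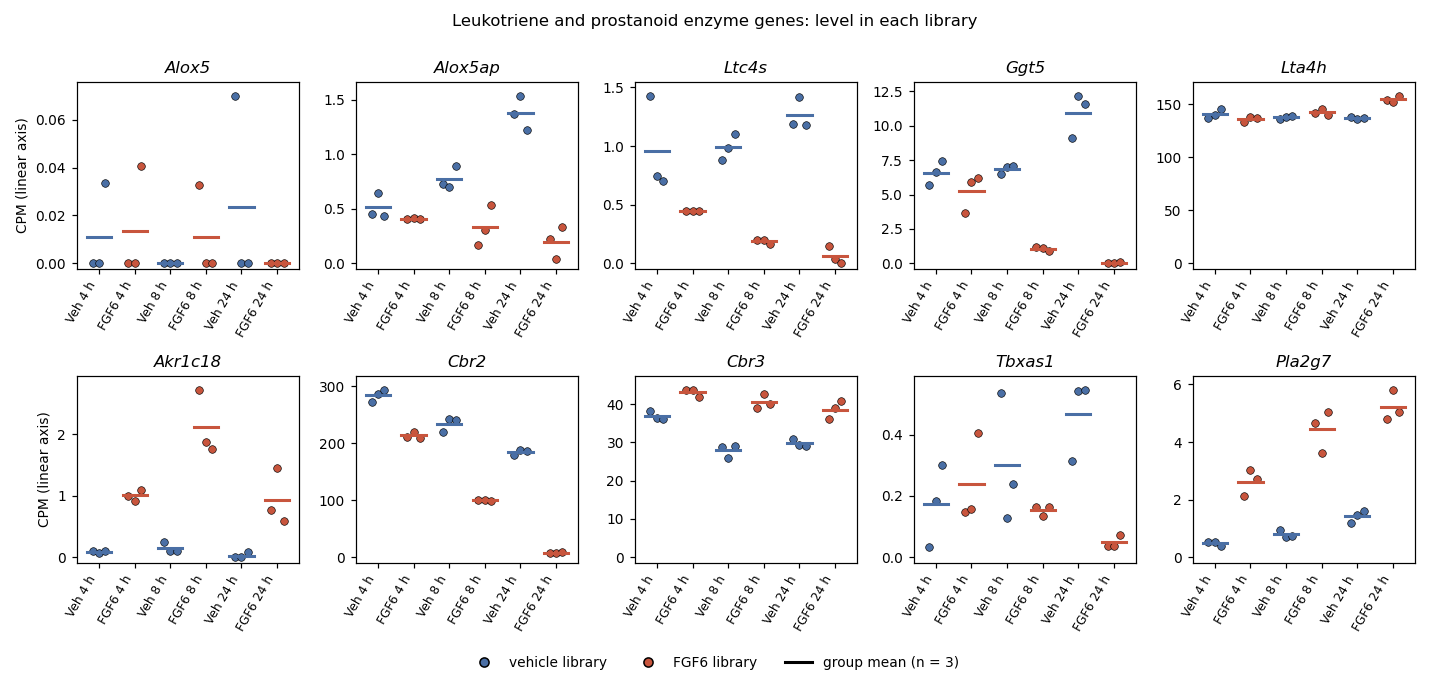
Level of each of the 10 genes in every library, in CPM on a linear axis that includes 0 and differs between panels, with blue points for vehicle, red points for FGF6, and bars for the mean of the 3 libraries of a group. Alox5 stays at or below 0.0701 CPM, Ggt5 goes from 9.11 to 12.2 CPM in Veh to at most 0.0734 with FGF6 at 24 h, and Akr1c18 and Pla2g7 are higher with FGF6 at each time.

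The prostanoid enzymes went in both directions. Akr1c18, an aldo-keto reductase best known as the 20-alpha-hydroxysteroid dehydrogenase that inactivates progesterone and also credited with prostaglandin F synthase activity, was close to the floor in vehicle. Its counts there were 3, 2, and 3 at 4 h, 8, 3, and 3 at 8 h, and 0, 0, and 2 at 24 h. With FGF6 its counts were 27, 29, and 27 at 4 h, 84, 56, and 43 at 8 h, and 21, 41, and 16 at 24 h. In CPM this was 1.01 ± 0.0866 (SD, n = 3) at 4 h, 2.13 ± 0.529 at 8 h, and 0.939 ± 0.464 at 24 h with FGF6, so the mean was highest at 8 h. Against vehicle, the log2 fold change was 3.48 (SE 0.51), 3.78 (SE 0.41), and 5.09 (SE 0.67) at 4, 8, and 24 h, and the value at 8 h was 4.38 without replicate 1 of Veh. The ratio of summed counts was 11.6 (95% interval 5.64 to 27.8) at 4 h, 14.2 (8.27 to 26.6) at 8 h, and 40.3 (10.8 to 339) at 24 h, and these intervals overlap. Without replicate 3 of Veh at 24 h, the vehicle side held no count at all and the fitted log2 fold change became 7.81, so that only a bound can be given, at least 9.59-fold higher with FGF6 against a floor of 3 counts in each of those libraries.

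Cbr2, a short-chain reductase known from the lung, was the highest of the 10 genes in vehicle and was far lower after 24 h of FGF6. In vehicle it was at 273, 286, and 294 CPM at 4 h, 220, 242, and 240 at 8 h, and 179, 188, and 186 at 24 h. With FGF6 it was at 211, 220, and 210 CPM at 4 h, 101, 101, and 99.3 at 8 h, and 8.21, 7.47, and 8.77 at 24 h. The groups did not overlap at any time, and libraries within a group were close to each other. Its difference was -0.41 (SE 0.039), -1.22 (SE 0.04), and -4.5 (SE 0.053) on the log2 scale, which is 1.33-fold, 2.33-fold, and 22.6-fold lower. Of the 50-base stretches in its transcripts, 12.1% also occur in Gm11771, an unprocessed pseudogene on the same chromosome, and the table gave that pseudogene at most 7 counts in a library.

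Cbr3, the reductase gene near Cbr1 on chromosome 16, went the other way by a small amount. It was at 38.3, 36.3, and 36.2 CPM in Veh and 43.8, 43.7, and 41.8 with FGF6 at 4 h, at 28.7, 26, and 29.2 against 38.9, 42.6, and 40 at 8 h, and at 30.8, 29.4, and 29 against 36.1, 38.9, and 40.8 at 24 h. All FGF6 libraries were above all Veh libraries at each time. This gave log2 fold changes of 0.22 (SE 0.052), 0.53 (SE 0.054), and 0.38 (SE 0.054). With library sizes alone, a scaling that moved the median of all genes at 4 h from -0.05 to -0.15, the value of Cbr3 at 4 h was 0.12.

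Tbxas1, thromboxane synthase, was barely detected. It held 1 to 18 counts in a library, and its groups overlapped at 4 and 8 h. Its log2 fold change was 0.41 (SE 0.62) at 4 h, where leaving out replicate 3 of FGF6 or replicate 1 of Veh turned it to -0.13 or -0.06, and -0.96 (SE 0.6) at 8 h (-0.24 without replicate 1 of Veh). At 24 h the counts were 9, 18, and 13 in Veh and 1, 1, and 2 with FGF6, so the groups no longer overlapped. The difference was then -3.16 (SE 0.71) on the log2 scale, and the ratio of summed counts was 9.67 (95% interval 3.5 to 37.2).

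Pla2g7, the platelet-activating factor acetylhydrolase, was higher with FGF6 from the first time point. In vehicle it was at 0.519, 0.525, and 0.401 CPM at 4 h, 0.947, 0.699, and 0.753 at 8 h, and 1.19, 1.48, and 1.6 at 24 h. With FGF6 it was at 2.11, 3.03, and 2.72 CPM at 4 h, 4.66, 3.63, and 5.05 at 8 h, and 4.81, 5.82, and 5.06 at 24 h. The lowest FGF6 library at each time was above the highest Veh library. For Pla2g7 the log2 fold change was 2.43 (SE 0.23) at 4 h, 2.46 (SE 0.2) at 8 h, and 1.88 (SE 0.18) at 24 h, that is 5.4-fold, 5.51-fold, and 3.69-fold. The level in vehicle was itself higher at later times.

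**Figure D2:**
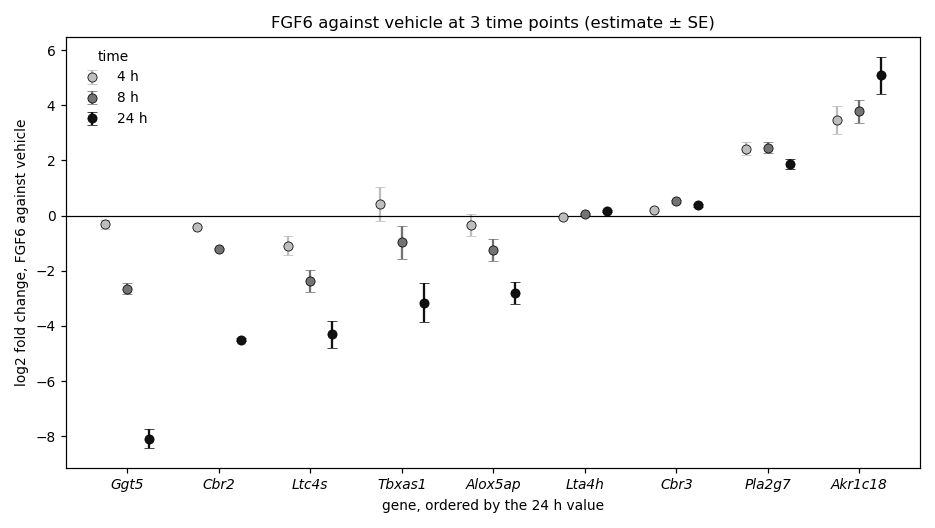
Log2 fold change of FGF6 against vehicle for the 9 genes with enough counts to be fitted, at 4 h (light gray), 8 h (gray), and 24 h (black), with bars of 1 SE. Ggt5, Cbr2, Ltc4s, Tbxas1, and Alox5ap lie below 0 at 24 h, from -8.08 to -2.81, whereas Akr1c18 (5.09) and Pla2g7 (1.88) lie above it and Lta4h and Cbr3 stay within 0.53 of it at all times.

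Alox5 was left out by the filter on low counts, so 9 of the 10 genes passed it. At an adjusted p under 0.05 (edgeR quasi-likelihood, Benjamini-Hochberg over the 15071 genes tested), 3 of the 9 were higher and 2 lower with FGF6 at 4 h, beside 28.6% and 34.2% of all genes tested. At 8 h, 3 were higher and 4 lower (32.4% and 38.4% of all genes), and at 24 h, 4 were higher and 5 lower (35.9% and 37.9% of all genes). The median log2 fold change of the 9 was -0.05, -0.96, and -2.81 at the 3 times, and that of all genes tested was -0.05, -0.05, and -0.02. Since the genes were selected on this contrast, nothing is read from these counts. The 3 comparisons use separate Veh libraries. Without replicate 3 of Veh at 24 h, the log2 fold changes at 24 h were -2.84 for Alox5ap, -4.3 for Ltc4s, -8 for Ggt5, 0.21 for Lta4h, -4.46 for Cbr2, 0.4 for Cbr3, -3.02 for Tbxas1, and 2 for Pla2g7, beside the bound given above for Akr1c18.

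Compared per length, as TPM (transcripts per 1000000), the order of levels of the genes differed between Veh and FGF6 at 24 h. TPM was not corrected for composition, and its spread in Veh at 24 h includes replicate 3, the library that stood apart. In Veh, Cbr2 came first at 487 ± 30.7 TPM (SD, n = 3), followed by Cbr3 at 83.2 ± 7.45 and Lta4h at 78.9 ± 5.24. Cbr3 was above Lta4h in each library (89.6, 84.9, and 75 against 82.8, 81.1, and 73 TPM for replicates 1, 2, and 3). Their ranges overlapped only through replicate 3. Ggt5 at 6.47 ± 0.926, Ltc4s at 4.38 ± 0.655, and Alox5ap at 3.41 ± 0.578 formed a middle tier. Ltc4s was above Alox5ap in each library (4.29, 5.07, and 3.77 against 3.52, 3.93, and 2.78 TPM), and their ranges overlapped only through replicate 3. Pla2g7 at 1.71 ± 0.185, Tbxas1 at 0.179 ± 0.0468, Akr1c18 at 0.0753 ± 0.13, and Alox5 at 0.0208 ± 0.036 came last, with Tbxas1 and Akr1c18, like Akr1c18 and Alox5, within their spread of each other. Akr1c18 had counts there only in replicate 3. With FGF6, Cbr3 came first at 109 ± 6.22 TPM and Lta4h second at 89.4 ± 1.35, ahead of Cbr2 at 21.7 ± 1.71. Pla2g7 at 6.36 ± 0.627 and Akr1c18 at 2.75 ± 1.35 came next. Alox5ap at 0.484 ± 0.368 and Ltc4s at 0.212 ± 0.266 lay within their spread of each other, as did Ltc4s and Ggt5 at 0.0216 ± 0.0218, and Ggt5 and Tbxas1 at 0.0188 ± 0.00828, and Alox5 had no count.

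Time in culture with vehicle alone was not used to select the genes, although these libraries are also the controls of the FGF6 comparisons. From 4 to 8 h in vehicle, Cbr2 and Cbr3 fell and Pla2g7 rose, 2 lower and 1 higher of the 9 tested, beside 21.7% lower and 21.2% higher of all genes. Cbr2 fell by 0.28 on the log2 scale (SE 0.039, adjusted p = 1.56e-06) and Cbr3 by 0.4 (SE 0.054, adjusted p = 1.06e-06) (edgeR quasi-likelihood, Benjamini-Hochberg). For Pla2g7 the log2 fold change was 0.72 (SE 0.28, edgeR adjusted p = 0.0388). This call was lost with limma-voom (adjusted p = 0.0919), without the low-count filter (edgeR adjusted p = 0.0669), with only the libraries of these times (edgeR adjusted p = 0.0567), and without any single Veh library at 4 h or replicate 1 or 3 at 8 h (edgeR adjusted p = 0.0549 to 0.154). The other 6 genes did not pass the test, with log2 fold changes from -0.03 for Lta4h to 0.8 for Tbxas1. The test of Akr1c18, which is among the 6, is not read, since only its FGF6 libraries took it past the low-count filter.

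From 8 to 24 h in vehicle, Alox5ap, Ggt5, and Pla2g7 rose and Cbr2 fell. Of the 9 tested, 3 were thus higher and only Cbr2 was counted as lower, beside 25.5% higher and 23.7% lower of all genes. Akr1c18 also passed the test close to the floor but is not counted, since only its FGF6 libraries took it past the low-count filter. Ggt5 rose by 0.68 on the log2 scale (SE 0.14, edgeR adjusted p = 0.000284) and Pla2g7 by 0.82 (SE 0.23, edgeR adjusted p = 0.00462). Cbr2 fell further by 0.34 (SE 0.039, edgeR adjusted p = 8.16e-08). For Alox5ap the log2 fold change was 0.84 (SE 0.3, edgeR adjusted p = 0.0234), a call lost without replicate 1 or 2 of Veh at 8 h or replicate 2 at 24 h (edgeR adjusted p = 0.0658, 0.076, and 0.0929). Akr1c18, which passed the low-count filter only through its FGF6 libraries, went in vehicle from 14 counts over 3 libraries to 2, a log2 fold change of -2.49 (SE 0.97, edgeR adjusted p = 0.0368), which was lost with only the libraries of these times (edgeR adjusted p = 0.057), without replicate 1 of Veh at 8 h (edgeR adjusted p = 0.18), and without replicate 1 or 2 at 24 h (edgeR adjusted p = 0.121 and 0.15). Without replicate 3 of Veh at 24 h, the calls of the counted genes held, with log2 values of 0.91 for Alox5ap, 0.65 for Ggt5, 0.74 for Pla2g7, and -0.35 for Cbr2 (edgeR adjusted p = 0.0287, 0.00121, 0.0209, and 3.94e-07). Akr1c18 then had 0 counts at 24 h, and no test is read from it. Ltc4s, Lta4h, Cbr3, and Tbxas1 did not pass, with log2 fold changes of 0.36, -0.01, 0.09, and 0.62.

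The close relatives of these enzymes were measured in the same libraries, and some of them went in the direction opposite to the enzyme they resemble. Akr1c18 sits in a cluster of aldo-keto reductase genes on chromosome 13, and its coding sequence is 73.8% to 77.7% identical to those of the 8 relatives compared. Of these, only Akr1c14, the 3-alpha-hydroxysteroid dehydrogenase, was expressed, at 84 to 2658 counts in a library, and the other 7 had at most 6 counts. Akr1c14 is 76% identical to Akr1c18 over 969 aligned coding bases. It fell with FGF6 at each time, with log2 fold changes of -1.02, -2.18, and -4.26 (edgeR adjusted p = 8.31e-07, 3.23e-13, and 1.73e-19), while Akr1c18 was higher. At 24 h the Akr1c14 mean was 77.4 CPM in Veh and 4.04 CPM with FGF6. On the same strand, 234 of its 3239 exonic bases overlap Gm18857. Of the 50-base stretches of Akr1c18 transcripts, 0.581% occur in a transcript of another gene on the same strand, mostly Akr1cl, which had at most 4 counts in a library.

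Among the carbonyl reductases, Cbr1, 77.1% identical to Cbr3 in coding sequence and able to reduce prostaglandin E2, fell at each time, with log2 fold changes of -0.49, -0.53, and -0.43 (edgeR adjusted p = 1.4e-08, 1.93e-09, and 2.85e-08), the direction opposite to Cbr3. Cbr4, a mitochondrial reductase, fell likewise, at -0.44, -0.56, and -0.42 (edgeR adjusted p = 0.000368, 6.64e-06, and 0.000112). Dcxr, a dicarbonyl and L-xylulose reductase 69.1% identical to Cbr2, fell at each time, at -0.93, -1.97, and -2.93 (edgeR adjusted p = 1.42e-10, 2.14e-16, and 1e-19). At 24 h Dcxr was at 31.7 CPM in Veh and 4.15 CPM with FGF6.

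LTC4S belongs to the MAPEG family of membrane glutathione enzymes. Of the other genes of this family, Mgst1 fell, with log2 fold changes of -0.65, -1.75, and -2.12 at the 3 times (edgeR adjusted p = 2.78e-12, 1.44e-20, and 3.14e-22) and Mgst3 fell, at -0.33, -0.57, and -2.2 (edgeR adjusted p = 4.33e-05, 8.86e-09, and 1.9e-20). Mgst2, which can also make leukotriene C4, fell at 4 and 8 h, at -0.6 and -1.19 (edgeR adjusted p = 2.37e-07 and 5.12e-12) and had a log2 fold change of 0.02 at 24 h (edgeR adjusted p = 0.776). The family member Ptges, the microsomal prostaglandin E synthase, rose by 1.52, 1.58, and 1.53 (edgeR adjusted p = 6.35e-20, 2.32e-20, and 3.23e-20). Of the relatives of Ggt5, Ggt1 (59.6% identical over 1654 aligned coding bases) and Ggt6 had at most 9 and 4 counts, and Ggt7 fell at 8 and 24 h, at -0.23 and -1.35 (edgeR adjusted p = 0.000228 and 2.02e-17). Of the relatives of Lta4h, the aminopeptidase Rnpep fell at each time, at -0.69, -0.7, and -0.43 (edgeR adjusted p = 1.04e-11, 3.9e-12, and 1.76e-08). Rnpepl1 rose at 4 and 8 h, at 0.31 and 0.29 (edgeR adjusted p = 1.95e-06 and 5.77e-06), and was at -0.14 at 24 h (edgeR adjusted p = 0.0117), a call lost without replicate 3 of Veh (-0.12, edgeR adjusted p = 0.0548). Without that library the other 10 of the 11 tested relatives kept their call at 24 h, with shifts of at most 0.08.

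**Figure D3:**
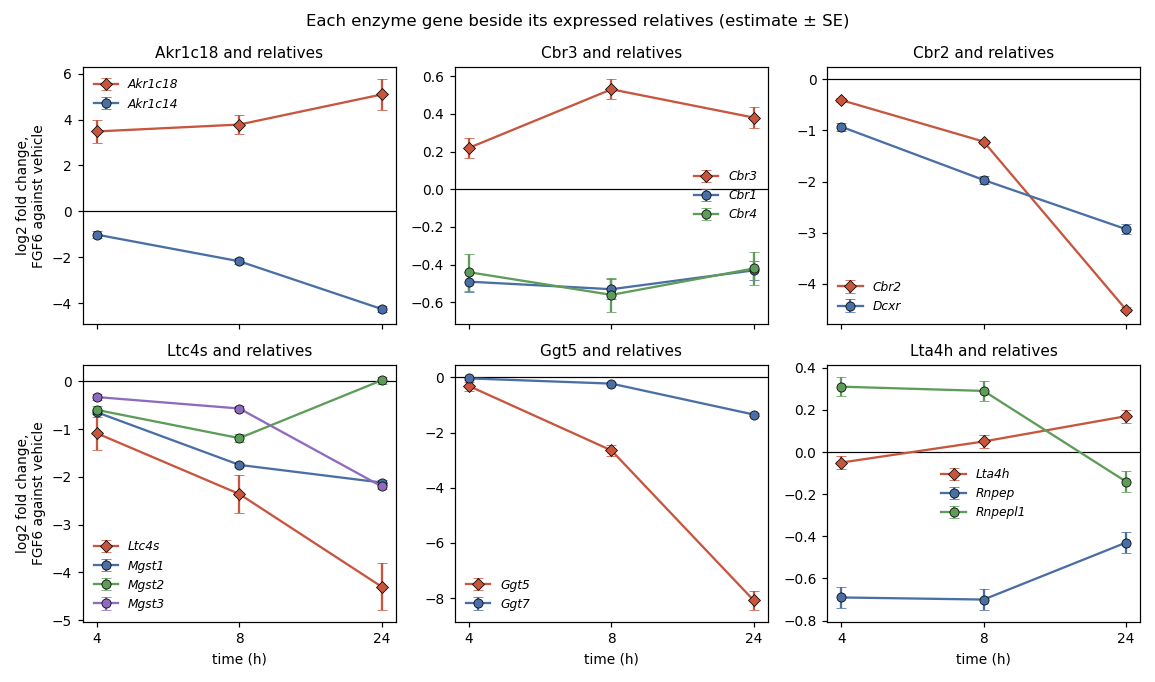
Log2 fold change of FGF6 against vehicle at 4, 8, and 24 h for 6 of the enzyme genes (red diamonds) and their expressed relatives (circles), with bars of 1 SE and a vertical scale that differs between panels. Akr1c18 lies above 0 and Akr1c14 below it at each time, Cbr3 lies above 0 and Cbr1 and Cbr4 below it, and Mgst1 and Mgst3 lie below 0 with Ltc4s.

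The rest of the eicosanoid pathway was followed with a list of 64 other genes in 8 roles, of which 37 were expressed well enough to be tested. With FGF6, 14 of the 37 were higher and 13 lower at 4 h, 15 and 15 at 8 h, and 15 and 15 at 24 h, with median log2 fold changes of -0.07, 0.01, and -0.02. As shares, 37.8% were higher and 35.1% lower at 4 h and 40.5% each way at 8 and 24 h, next to the shares of all genes given above. Without replicate 3 of Veh at 24 h, 16 were higher and 15 lower at that time, 36 of the 37 calls were the same, and no log2 fold change moved by more than 0.36. The counts by role that follow are over few genes and are to be read beside the 35.9% higher and 37.9% lower of all genes at 24 h. Beside the leukotriene enzymes, all 3 tested genes of leukotriene conversion (Dpep1, Mgst2, and Mgst3) were lower at 4 and 8 h, and 2 of the 3 at 24 h. Dpep1, the dipeptidase that turns leukotriene D4 into leukotriene E4, fell at each time, with log2 fold changes of -0.58, -1.2, and -2.24 (edgeR adjusted p = 3.03e-08, 1.49e-13, and 2e-18). Of the 2 tested lipoxygenases, named here after their values were seen, Alox12 fell at 4 h (log2 fold change -1.25, edgeR adjusted p = 0.00477) and neither Alox12 nor Aloxe3 passed at 24 h, with log2 fold changes of 0.6 and -0.41 (edgeR adjusted p = 0.0898 and 0.143). Without replicate 3 of Veh, Alox12 did pass at 24 h, at 0.96 (edgeR adjusted p = 0.0173).

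Of 14 listed receptors for the products of this pathway, 7 were expressed well enough to be tested. Of these, 2 were higher and 3 lower at 4 and at 8 h, and 1 was higher and 5 were lower at 24 h. The best expressed in vehicle, named after its values were seen, was Ptgfr, the prostaglandin F receptor. Its means were 67.6, 71.5, and 61.8 CPM in Veh and 36.2, 50.1, and 42.9 CPM with FGF6 at 4, 8, and 24 h (log2 fold change -0.53 at 24 h). Tbxa2r, the thromboxane receptor, fell at each time, with log2 fold changes of -2.97, -2.91, and -5.05 (edgeR adjusted p = 2.24e-08, 5.18e-09, and 2.99e-12), from 3.33 CPM in Veh to 0.0972 CPM with FGF6 at 24 h. Its FGF6 libraries held 2 to 11 counts each at 4 h. At 24 h they held 1 to 4 each and 8 in all, around the floor of detection, so that size is uncertain. Ptger1, a prostaglandin E2 receptor, fell at 4 and 24 h, at -0.24 and -0.74 (edgeR adjusted p = 0.000392 and 9.58e-12), and at 8 h its log2 fold change was 0.04 (edgeR adjusted p = 0.564). The receptors that were higher, named here after their values were seen, were Ptgir and Ptger4. Ptgir, the prostacyclin receptor, rose at 4 and 8 h, at 1.3 and 1.38 (edgeR adjusted p = 7.3e-18 and 1.68e-18), and was at -0.02 at 24 h (edgeR adjusted p = 0.732). Ptger4, another prostaglandin E2 receptor, rose at each time, at 0.86, 0.99, and 0.49 (edgeR adjusted p = 7.63e-12, 1.02e-12, and 4.18e-06). The leukotriene B4 receptor genes Ltb4r1 and Ltb4r2, also named after their values were seen, were among the 5 that were lower at 24 h, but at levels of 0.371 and 0.431 CPM in Veh and with 4 counts each over the 3 FGF6 libraries, around the floor of detection, so no size is given. The cysteinyl leukotriene receptor genes Cysltr1 and Cysltr2 were not tested, with mean levels of at most 0.0324 CPM in any group.

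On the prostanoid side, all 3 tested genes of this list that reduce or break down prostanoids (Ptgr1, Ptgr2, and Cbr1) were lower with FGF6 at each time. The list leaves out the reductase genes described above, of which Akr1c18 and Cbr3 were higher and Cbr2 was lower at each time. Ptgr1, which reduces keto metabolites of prostaglandins and also inactivates leukotriene B4, fell at each time, with log2 fold changes of -0.53, -1.13, and -0.62 (edgeR adjusted p = 1.16e-08, 4.33e-15, and 1.37e-10). Of the 7 tested genes of prostanoid synthesis, 5 were higher at 4 and 8 h and 6 at 24 h, and 1 was lower each time, with the largest rise for Ptgs2, the inducible cyclooxygenase, at 3.05, 3.86, and 3.45 (edgeR adjusted p = 4.18e-21, 4.23e-23, and 1.54e-22). Of 6 tested phospholipase genes, which release the substrate, 2 were higher at 24 h (33.3%) and 1 lower (16.7%), beside 35.9% and 37.9% of all genes. Pla2g12a rose at each time, by 0.29, 0.54, and 0.95 (edgeR adjusted p = 0.000125, 1.13e-08, and 1.95e-13). Pla2g4a was at 0.06, 0.17, and 0.49 (edgeR adjusted p = 0.157, 0.000189, and 6.85e-12). Among the 6 other genes of platelet-activating factor, 4 were higher and 2 lower at 24 h, with Pafah1b2, a subunit of the intracellular acetylhydrolase, at 0.43 and Lpcat2, which makes platelet-activating factor, at -1.09 (edgeR adjusted p = 1.28e-12 and 6.07e-07). Lpcat1 went opposite to Lpcat2, and Pafah2 opposite to Pafah1b2, both named after their values were seen. Lpcat1 was higher (log2 fold change 0.41, from 45.4 CPM in Veh to 60.4 CPM with FGF6), whereas Lpcat2 was at 4.82 and 2.27 CPM. Pafah2 was lower, at -0.34. Of the eicosanoid transporters, Abcc1, which exports leukotriene C4, rose by 0.62, 1.13, and 0.87 (edgeR adjusted p = 4.96e-14, 1.84e-19, and 2.73e-17). Slco2a1, the prostaglandin uptake transporter, rose at 4 and 8 h, at 1.17 and 1.02, and fell at 24 h, at -0.46 (edgeR adjusted p = 2.77e-19, 2.65e-18, and 4.16e-11). Over all 37 tested pathway genes, the FGF6 effect differed between 24 and 4 h at an edgeR adjusted p under 0.05 for 23 (62.2%), beside 53.5% of all genes tested, and for 23 without replicate 3 of Veh at 24 h.

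**Figure D4:**
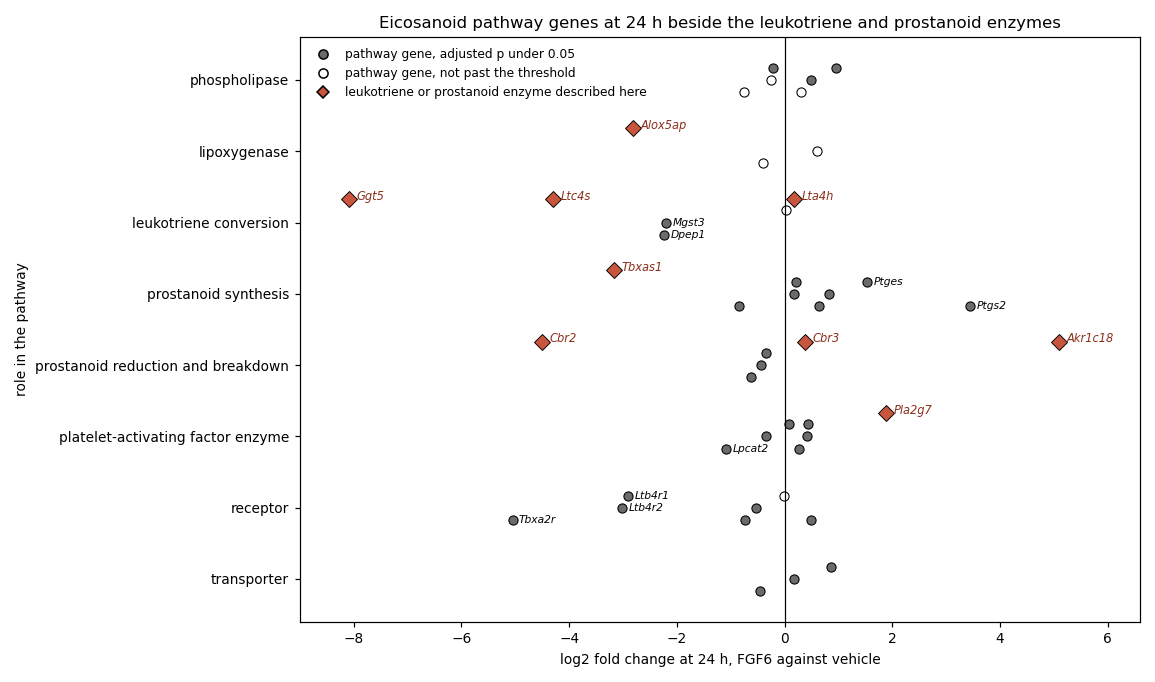
Log2 fold change of FGF6 against vehicle at 24 h for the 37 tested genes of the pathway list (circles, filled where the edgeR adjusted p was under 0.05), grouped by role, with the 9 leukotriene and prostanoid enzymes described here as red diamonds; vertical offsets within a role only separate the points. Tbxa2r (-5.05) and Ptgs2 (3.45) are the extremes among the circles, and Ggt5 (-8.08) and Akr1c18 (5.09) those among the diamonds. The sizes for Tbxa2r, Ggt5, and Akr1c18 rest on counts around the floor of detection in either the FGF6 or the Veh libraries.

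The genes whose log2 CPM over the 18 libraries was most like that of 4 of the enzymes, among those with a mean of at least 1 CPM, are given as a description, since these libraries share the treatment and the times. For Cbr2 they were C1ra, C1s1, and C3, with Pearson's r of 0.997, 0.997, and 0.995. For Ggt5 they were Pld3, Tap2, and Aplp2 (r = 0.993, 0.991, and 0.99), and for Ltc4s Liph, Notch3, and Cemip (r = 0.98, 0.965, and 0.965). For Akr1c18 they were Emg1, Ddx47, and Utp11 (r = 0.968, 0.965, and 0.965). Their sizes differed from that of the enzyme, with log2 fold changes at 24 h of -4.78 for C1ra, -5.77 for C1s1, -4.38 for C3, -1.57 for Pld3, -3.14 for Tap2, -1.07 for Aplp2, -2.62 for Liph, -4.42 for Notch3, -5.03 for Cemip, 0.61 for Emg1, 0.31 for Ddx47, and 0.44 for Utp11.

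Several of these enzymes are best known from blood cells, and marker levels moved between the groups. Of 10 macrophage markers, 5 (Ptprc, Adgre1, Itgam, Tyrobp, and Aif1) had at most 3 counts in every library, and the summed level of the 10 was 15 to 16 CPM in Veh and 44.4 to 47 CPM with FGF6 at 24 h, 41.6 CPM of it from Cd14, while Lyz2, Csf1r, and Cd68 were lower with FGF6. Of 7 mast cell markers, 6 had at most 3 counts in every library, and the sum never exceeded 0.284 CPM. The preadipocyte markers summed to 6050 to 6480 CPM in Veh and 1580 to 1660 CPM with FGF6 at 24 h, the 6 adipocyte markers to 186 to 210 and 71.6 to 79.2 CPM, and the 5 endothelial markers to 0.995 to 1.33 and 3.71 to 5.65 CPM. Most of the adipocyte sum was Fabp4, at 160 CPM in Veh and 66.9 CPM with FGF6. Of the endothelial markers, named after their values were seen, only Cdh5 was called at 24 h (log2 fold change 5.84). Its counts ranged from 0 to 114 over all libraries, so this size is uncertain and only its direction is read. Kdr was tested and not called (0.39), and Pecam1, Tek, and Emcn had at most 7, 9, and 3 counts in a library. At 24 h, 7 of 10 tested preadipocyte markers and all 5 tested adipocyte markers were lower with FGF6, beside 37.9% of all genes, at the same time as Ggt5, Cbr2, Ltc4s, and Alox5ap. Much of the preadipocyte sum came from Col1a1, a collagen gene, which went from 3110 to 443 CPM. The other 3 of these markers rose, named after their values were seen, Dcn from 21.4 to 132 CPM, Cd34 from 16.5 to 43 CPM, and Lum from 4.31 to 6.47 CPM (edgeR adjusted p = 1.72e-17, 9.69e-14, and 0.00522). Without replicate 3 of Veh, the calls of all 21 tested markers were the same. The part of these marker levels in the results for the enzymes was not tested.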

How the data were processed

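RNA of mouse brown preadipocytes was sequenced on 18 libraries. The authors deposited 1 table of raw read counts per gene, not normalized. Per the study's methods, reads were aligned to GRCm38 with STAR and counted over GENCODE genes with featureCounts; versions, strand setting, and treatment of multiply mapped reads are not given in the sources used here. From the 48023 genes, those with low counts by group were removed with filterByExpr, and 15071 were tested. Libraries were scaled by TMM and all 6 groups were fitted together in edgeR 4.0.16 (R 4.3.3) by quasi-likelihood, with adjusted p-values by Benjamini-Hochberg over all genes tested and a threshold of 0.05. The study itself used limma-voom at 0.25. SEs were derived from the quasi-likelihood statistic. TPM used exonic lengths of GENCODE M21, whose annotation gave a symbol for 98.3% of the genes. Ratios of summed counts have exact conditional 95% intervals, which cover counting error only.

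The 10 genes, the pathway, relative, and marker lists, and the tests were chosen with earlier results of these data known. Named pathway genes were the 2 with the largest change at 24 h in each role among those past the threshold with a mean of at least 1 CPM. Expressed relatives were named in full, and the 3 genes with the highest correlation to each of Akr1c18, Ltc4s, Ggt5, and Cbr2 were named. Coding sequences of GENCODE M21 transcripts were aligned with Biopython 1.88, since no protein sequences were used here. Alternatives were limma-voom (limma 3.58.1), DESeq2 1.42.0, other scalings and filters, other thresholds, fits of fewer libraries, a replicate block, and leaving out each library. Depth and the floor of detection are given with the results.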

Additional observations from a re-analysis of the deposited data

Results flagged for a closer look

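For 11 named genes of the eicosanoid pathway, the FGF6 effect at 24 h differed from that at 4 h by the interaction test in edgeR with Benjamini-Hochberg adjustment. These genes were named for the size of their change at 24 h, so the test is not independent of that choice and their number is no result. All 11 calls were the same without replicate 3 of Veh at 24 h. Each value is the log2 effect at 24 h minus that at 4 h, so changes in Veh over time enter it as well as changes with FGF6. Among the leukotriene genes, Mgst3 had a difference of -1.87 (adjusted p = 2.76e-15) and Dpep1 one of -1.66 (adjusted p = 1.16e-12). Slco2a1, the prostaglandin transporter, went from higher to lower with FGF6, a difference of -1.63 (adjusted p = 1.34e-18), whereas Abcc1 had a difference of 0.25 (adjusted p = 0.000148). Tbxa2r and Ptger1, both receptors, had differences of -2.08 (adjusted p = 0.00852) and -0.5 (adjusted p = 5.55e-06). The Tbxa2r value rests on FGF6 counts around the floor at 24 h. Lpcat2, which makes platelet-activating factor, had a difference of -0.99 (adjusted p = 0.000507), and Pafah1b2, which breaks it down, one of 0.29 (adjusted p = 2.34e-06). The listed genes Lpcat1 and Pafah2 had differences of 0.03 and -0.01 that did not pass the threshold, so this pair does not stand for its role. The phospholipases Pla2g12a and Pla2g4a had differences of 0.66 (adjusted p = 2.88e-07) and 0.43 (adjusted p = 1.57e-07), and Ptgs2 one of 0.4 (adjusted p = 0.00165). From 4 to 24 h, Ptgs2 went from 1280 to 928 CPM with FGF6 and from 154 to 84.7 CPM in Veh. Abcc1 also fell in both, from 374 to 274 CPM and from 243 to 150 CPM. Lpcat2 went from 2.69 to 2.27 CPM with FGF6 and from 2.87 to 4.82 CPM in Veh. Pla2g12a, in contrast, rose with FGF6 from 37.2 to 46.6 CPM and fell in Veh from 30.3 to 24 CPM. The other named genes Ptges, Ptgr1, and Cbr1 had differences of 0, -0.09, and 0.06 (adjusted p = 0.973, 0.339, and 0.545).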

How the results depend on the processing

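No called value changed sign under the alternatives run, whereas several uncalled differences did, among them Lta4h at 8 h and Tbxas1 at 4 h with FGF6 and Ltc4s and Ggt5 in vehicle from 4 to 8 h. Requiring at least a 2-fold change left 4, 5, and 2 of the other eicosanoid genes higher with FGF6 at 4, 8, and 24 h and 2, 6, and 6 lower. Of the 10 enzyme genes, it left 3 past the threshold at 4 h, while a minimum of 10 counts in every library, which drops the low genes from the fit, left 3, 4, and 4 at 4, 8, and 24 h. These genes were chosen on this contrast and nothing is read from their counts. In vehicle from 4 to 8 h, the number of enzyme genes that rose was 0 with limma-voom, without the low-count filter in edgeR, with only the libraries of those times in edgeR, and at 2-fold, 2 at a threshold of 0.25, and 0 to 1 when single libraries were left out (unadjusted p under 0.05 held for 1 gene in each of these fits of all libraries and in DESeq2). The number that fell then was 0 at 2-fold. From 8 to 24 h, the number that rose was 1 with at least 10 counts and 0 at 2-fold in edgeR, and the number that fell was 1 with at least 10 counts, with only those times, and at 2-fold, 3 with library sizes alone, where Lta4h also passed (-0.08, edgeR adjusted p = 0.0251), and 1 to 2 when single libraries were left out. These numbers that fell include Akr1c18 wherever it passed, and at 2-fold it was the gene counted. The same-numbered replicates share only a number and did not pair the libraries (correlations of deviations from -0.0275 to 0.0486), and with a replicate block the pathway counts were 14, 15, and 15 higher and 14, 15, and 15 lower at the 3 times. Depth limits Akr1c18 in vehicle, Alox5, Tbxas1, and Ltc4s, Ggt5, and Tbxa2r with FGF6 at 24 h, whose counts are close to or below the floor of 3.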
